A study of Mus musculus with 2 samples.

Results

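The miRNA genes named Mir297, Mir466, Mir467 and Mir669 are a rodent set of hairpins related by repeated duplication, many of them rich in alternating TG and CA bases. They were taken here by symbol, as every measured gene whose GENCODE M21 symbol starts with one of these stems followed by a letter, a hyphen or the end of the symbol, whatever its count. This gave 81 of the 2202 miRNA genes measured. Of the 81, 71 lie on the plus strand inside Sfmbt2, on chromosome 2, and 10 lie elsewhere, so the array of Sfmbt2 gives most but not all of the set.

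Reads of small RNA (a size range below 30 in the labels) were counted in the adrenal gland of female mice aged 18 to 20 months of the strain B6CASTF1/J, the first-generation hybrid of C57BL/6J and CAST/EiJ. No treatment is given in the labels. There is 1 group with 2 biological replicates, taken from different pieces of tissue but with 1 donor entry in the labels. The spread given is therefore that between these samples, and no condition was compared. Own-strand counts over all miRNA genes totalled 2590051 in replicate 1 and 2291030 in replicate 2, so that 1 count is worth 0.386 and 0.436 CPM (counts per 1000000 own-strand counts). For reads that align to a single place, a count of 0 leaves room for 3 counts, or 1.16 and 1.31 CPM. Reads that align to several places are in no gene's count, so this limit does not bound a miRNA with repeated sequence, and the levels of such genes are of singly aligned reads only.

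Sfmbt2 encodes a polycomb group protein and is imprinted, with expression from the paternal allele in early embryos and in the placenta. A large intron of the gene holds the miRNA array, which is processed from the host transcript and is best known from embryonic stem cells and trophoblast. A miRNA pairs with its targets mainly through its seed, bases 2 to 8 of the mature strand, and near-identical copies can therefore act on shared targets. Individual members have been studied outside the embryo: miR-467b as a repressor of lipoprotein lipase in macrophages, miR-669a as a repressor of MyoD in cardiac progenitor cells and miR-466l as a regulator of interleukin 10 messenger RNA.

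Mature sequences are shown for the 8 members that have one in RefSeq (GRCm38.p6), in which 9 of the 81 members were matched. The seed is in capitals and all run 5′ to 3′. All 8 genes lie outside Sfmbt2, and all had 0 counts in both libraries.
miR-466q: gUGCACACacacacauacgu
miR-466k: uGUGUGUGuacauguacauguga
miR-669n: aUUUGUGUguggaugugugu
miR-467g: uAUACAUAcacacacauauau
miR-467h: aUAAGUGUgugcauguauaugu
miR-466j: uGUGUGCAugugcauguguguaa
miR-467f: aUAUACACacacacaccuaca
miR-466i-3p: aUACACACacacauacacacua

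The 8 sequences carry 8 different seeds, so shared stems in the names do not stand for a shared seed here. Repeated CA runs through miR-466i-3p, miR-466q and miR-467f, and repeated UG through miR-466k, miR-466j and miR-669n. The mature sequence of miR-467h also occurs whole in the hairpins of the miRNA genes Gm26303 and Gm25510, its neighbours on chromosome 9, both at 0 in both libraries. The other 7 occur whole in no other annotated miRNA hairpin. RefSeq entries for the members that had counts, Mir467d, Mir669c, Mir467e, Mir669o, Mir467c, Mir669l, Mir669e, Mir669h and Mir466n, were not matched.

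In the adrenal gland the counted reads of the set came from 9 genes, all inside Sfmbt2. The 81 genes together had 1492 counts in replicate 1 and 1115 in replicate 2, or 576 and 487 CPM, a mean of 531 ± 63.2 CPM (SD, n = 2). The share of own-strand counts was 0.0576% in the first library (Wilson 95% interval 0.0548 to 0.0606) and 0.0487% in the second, with an interval of 0.0459 to 0.0516. Such intervals hold the counting error of reads alone. Copies made by PCR are counted as well, so the intervals may be too narrow. At least 10 counts in each library, the limit used for a detected gene, were found for 7 of the 81 members (8.64%), against 339 of all 2202 genes (15.4%). Among genes outside the set that also share at least 18 bases with another miRNA gene, 81 of 1055 (7.68%) were detected, beside 7 of 80 (8.75%) among the members that do. The other 72 members had no own-strand count in either library.

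All counts of the set lay at Sfmbt2, which also holds 71 of the 81 members. The gene spans chromosome 2, 10370510 to 10595253, on mm10, and its 71 member hairpins stretch over 51.6 kb, from 10466663 to 10518279. All 71 sit in a single intron, 10461473 to 10523944, between exons 10 and 11 of 1 annotated transcript and exons 11 and 12 of another. Of the 71, 9 had counts (12.7%), against 724 of all 2202 miRNA genes (32.9%). None of the 10 members elsewhere had a count. Whether the share with counts differs between the array and the members elsewhere was not tested.

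**Figure D1:**
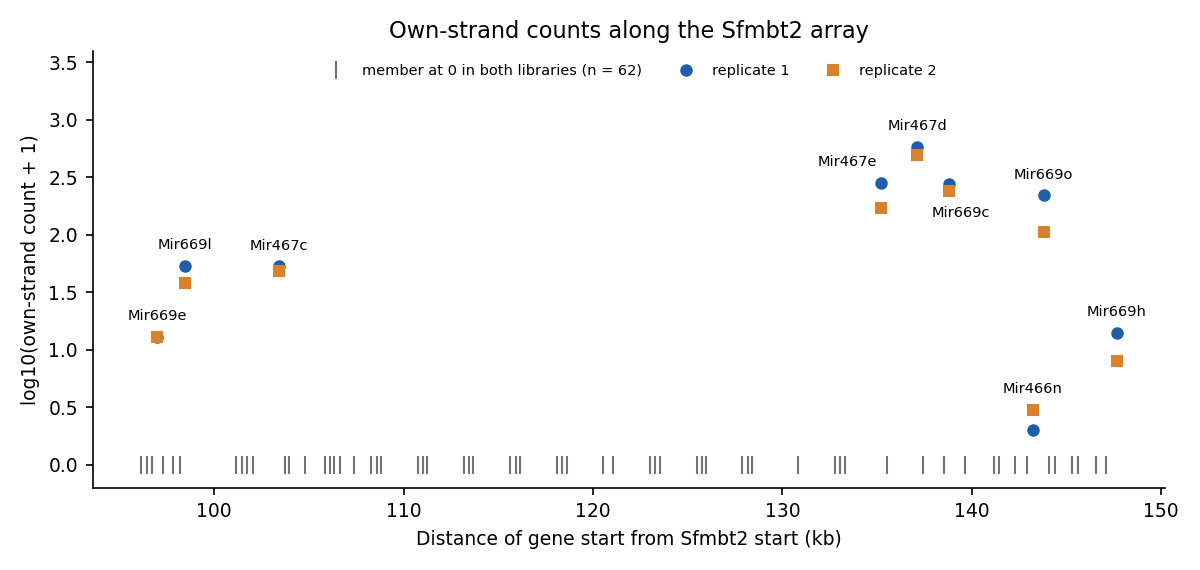
Own-strand counts of the 71 members inside Sfmbt2, as log10 of the count plus 1, against the distance of the gene start from the Sfmbt2 start in kb; circles are replicate 1, squares replicate 2 and grey ticks members at 0 in both libraries. The 9 members with counts lie towards both ends of the array, and the stretch between Mir467c and Mir467e holds only ticks.

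Mir467d led the set, with 583 counts in replicate 1 and 497 in replicate 2, a mean of 221 ± 5.77 CPM (SD, n = 2). Both libraries lay close together, and the gene ranked 141 by mean CPM among all 2202. Its hairpin lies at 10507630 to 10507714. It alone gave 39.1% of the set's counts in replicate 1, with a Wilson 95% interval of 36.6 to 41.6, and 44.6% in replicate 2, with an interval of 41.7 to 47.5.

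Mir467e and Mir669c, on either side of Mir467d, and Mir669o made up most of the remainder. Mir467e (10505721 to 10505807) had 281 and 171 counts in replicates 1 and 2, or 108 and 74.6 CPM. Mir669c (10509296 to 10509404) had 277 and 238 counts, or 107 and 104 CPM. Mir669o (10514300 to 10514395) had 220 and 104 counts, or 84.9 and 45.4 CPM. Mir669c was level between the libraries, while Mir467e and Mir669o were higher in replicate 1. The means of Mir467e, 91.6 ± 23.9 CPM, and Mir669o, 65.2 ± 28.0 CPM (SD, n = 2 each), differed by less than the SD of Mir669o. Within each library, however, Mir467e was above Mir669o.

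At the upstream end of the array, Mir467c and Mir669l had lower levels than these 4 genes in both libraries. Mir467c (10473931 to 10474027) had 52 and 47 counts, a mean of 20.3 ± 0.310 CPM (SD, n = 2). Mir669l (10468971 to 10469068) had 53 and 37 counts, a mean of 18.3 ± 3.05 CPM (SD, n = 2). These neighbours in the order of levels differed by less than the SD of Mir669l. Mir669e (10467495 to 10467613) followed with 12 counts in each library, 4.94 ± 0.428 CPM, and Mir669h (10518155 to 10518279), at the downstream end, with 13 and 7 counts, 4.04 ± 1.39 CPM (SD, n = 2 each), which again differed by less than their spread. Mir466n (10513741 to 10513834) had 1 and 2 counts, so its 0.630 ± 0.344 CPM (SD, n = 2) lay under the limit that a count of 0 allows.

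These CPM are per hairpin gene and not divided by length. The levels of Mir669c, 105 ± 2.17 CPM (SD, n = 2), and Mir467e did not differ beyond the spread of Mir467e. Per 100 hairpin bases they changed places, at a mean of 96.7 CPM for Mir669c and 105 CPM for Mir467e, and the other 7 genes kept their rank.

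By name stem, almost all counts belonged to Mir467 and Mir669. The 17 Mir467 genes, 3 of them with counts, summed to 354 and 312 CPM in replicates 1 and 2, which was 61.4% and 64.1% of the set. The 30 Mir669 genes, 5 of them with counts, summed to 222 and 174 CPM. Of the 28 Mir466 genes, 1 had counts (Mir466n), and of the 6 Mir297 genes none had. Shares with counts were 17.6% (Mir467), 16.7% (Mir669), 3.57% (Mir466) and 0% (Mir297), against 11.1% of the set and 32.9% of all miRNA genes. Multiply aligned reads are missing from these values, and the stems differ in shared sequence. The median share of 18-base words found in no other miRNA gene was 0% for Mir467 and 27.9% for Mir466. Expression was therefore not compared between stems.

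**Figure D2:**
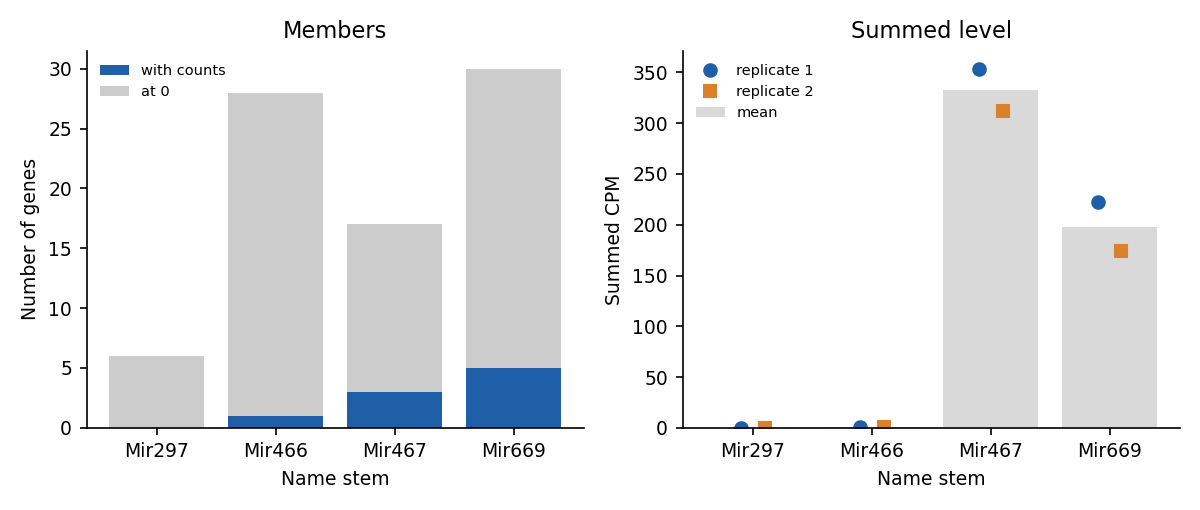
Left, number of genes per name stem with counts (blue) and at 0 in both libraries (grey); right, CPM summed over the genes of a stem, with circles for replicate 1, squares for replicate 2 and bars for their mean. Mir466 has 28 genes and almost no counts, while the 17 Mir467 genes sum to 354 and 312 CPM. Only reads that align to a single place are in these values.

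The members differ in how much sequence they share, and this differed between those with counts and those at 0. Every run of 18 bases of a hairpin was looked up in all other miRNA genes, on both strands, and a run found in no other, non-overlapping miRNA gene is called here a word of its own. Of the 81 members, 80 shared at least 1 word with another miRNA gene, and the exception was Mir466g. The median member had 25.3% words of its own, against 96.9% over all miRNA genes. The words were compared with annotated miRNA genes, not with the whole genome.

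No member without a word of its own had a count. There were 32 such members, all at 0 in both libraries, among them all genes of the Mir467a series. The 9 with counts had between 33.8% (Mir467d) and 92.2% (Mir669e) words of their own, with a median of 53.8%. The 62 members at 0 inside Sfmbt2 ranged from 0% to 100% with a median of 0%. The 10 at 0 elsewhere had a median of 65.0%, above that of the 9 with counts. Over all 72 at 0 the median was 20.3%. Among genes outside the set, 5 of the 273 without a word of their own had counts (1.83%), against 724 of all 2202 genes (32.9%). In these tables, reads that align to several places are kept apart from the gene counts, and they made up 24.0% of all reads in replicate 1 and 28.0% in replicate 2. How many of them came from the set was not tested, so a 0 at a repeated member is no measure of that miRNA.

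Having words of its own did not go with counts throughout. Of the 12 members with at least 70% own words, 2 had counts (16.7%), Mir669c and Mir669e, and 10 had none. Over all miRNA genes 724 of 2202 (32.9%) had counts, and 576 of 1067 (54.0%) among those that share no 18-base word. The share among all genes with at least 70% own words was not computed. Of the 10 at 0, those inside Sfmbt2 were Mir466g at 100%, Mir466h at 90.6%, Mir669b at 81.2%, Mir466l at 79.8% and Mir669i at 70%. Elsewhere they were Mir669n at 97.3%, Mir466f-4 at 88.5%, Mir466j at 77.1%, Mir467f at 76.7% and Mir466k at 71.4%. Mir467d, the highest of the set, had 33.8%, and Mir669d, at 0, had 38.5%.

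**Figure D3:**
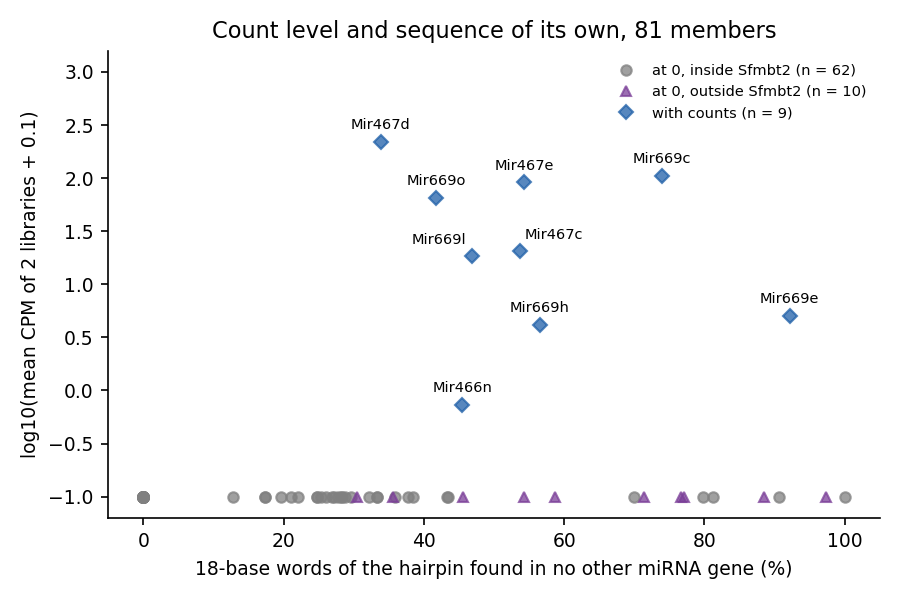
Mean CPM of both libraries, as log10 of CPM plus 0.1, against the percentage of a hairpin's 18-base words that occur in no other miRNA gene, for all 81 members; diamonds have counts, circles and triangles are at 0 inside and outside Sfmbt2. The diamonds begin at 33.8%, and members at 0 are found from 0% to 100%.

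Whole hairpins were compared as well. A hairpin identical to that of another annotated miRNA gene was found for 26 members. One at least 95% identical was found for 41 members, the 26 among them, and 0 of the 41 had counts. A read from a hairpin with an identical copy aligns to several places and is in no gene's count. The 0 of the 26 was therefore fixed by the counting and is no result beside that on own words. Identity was computed for members only, so no share over all genes can stand beside this count. The closest other hairpin of the 9 with counts was 71.1% to 92.8% identical. Mir467d and Mir467e, each with counts, were each other's closest hairpin at 92.0% identity. In base composition the 9 ranged from 34.7% to 42.9% GC with a median of 39.4%, against 21.7% to 46.1% and a median of 35.7% for the 72 at 0. Steps of TG, GT, CA or AC made up a median of 48.8% of the dinucleotides in the 9 and 51.2% in the 72, against 27.0% over all miRNA genes.

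Along the array, counts and own sequence lay at the ends. The 14 Mir467 genes of Sfmbt2 start at a median distance of 2.45 kb from each other (1.91 to 4.88 kb), and 11 of the 14 are followed by a Mir466 and then a Mir669 member. Split at Mir467a-1 and Mir467e, limits chosen after the values were seen, the 27.5 kb in the middle hold 35 members with 0 counts in both libraries, and 30 of these have no word of their own. The 16 members upstream, with 3 that had counts, gave 117 and 96 counts in replicates 1 and 2. The 20 downstream, with 6 that had counts, gave 1375 and 1019 counts, or 92.2% and 91.4% of the set. Within the Mir467 stem, Mir467c upstream and Mir467e and Mir467d downstream had counts, and the 11 between them, the Mir467a series and Mir467b, had none. The Mir467a series has no word of its own and Mir467b has 19.6%. Position and shared sequence therefore cannot be told apart for these genes.

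Genes next to each other differed in whether they had counts. Mir467d had 583 and 497 counts and Mir669c, 1.67 kb after it, 277 and 238, while Mir466 and Mir297c between them had 0. The span of Sfmbt2 holds 48 further miRNA genes on the same strand, most of them annotated without a family name. Of these, Gm22072 and Gm25263 had 2 counts each in replicate 1 and 0 in replicate 2, and 46 had none. Their median share of own words was 9.09%.

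The 10 members elsewhere in the genome are scattered over 7 chromosomes. Mir466q lies in an intron of Tnik on chromosome 3, 28419943 to 28420018, on the same strand as that gene. Mir466k (chromosome 3, 85467377 to 85467498), Mir669n (chromosome 3, 115979902 to 115979955), Mir467g (chromosome 5, 34732853 to 34732972), Mir467f (chromosome 11, 69635400 to 69635519) and Mir466i (chromosome 13, 17747473 to 17747593) lie against the strand of an intron, in Gm37240, Slc30a7, Grk4, Fxr2 and Cdk13. Mir297-1 (chromosome 7, 10958437 to 10958512), Mir467h (chromosome 9, 115381819 to 115381939), Mir466j (chromosome 10, 60960723 to 60960844) and Mir466f-4 (chromosome 13, 71107089 to 71107209) lie in no annotated gene of another type. Their median share of own words was 65.04%, against 19.6% for the 71 members of the array. All 10 were at 0.

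Opposite-strand counts at the 81 members were 0 in both libraries, while all miRNA genes together had 400130 and 252273 of them. Their counts with strand ignored were equal to the own-strand counts.

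Between the libraries, 2 members were lower in replicate 2 and 6 tested members did not pass. Members were compared within an exact conditional binomial test of the reads of both libraries, fitted over the 367 miRNA genes with a summed count of at least 20 and adjusted by Benjamini-Hochberg over all of them, at an adjusted p of 0.05. Counting error is the only spread in this test, which therefore compares these 2 libraries and no condition. It called 230 of the 367 genes, 62.7%, with 32.4% higher in replicate 1 and 30.2% higher in replicate 2. Of the 8 members tested, 2 were called, both higher in replicate 1, and none was higher in replicate 2. The median log2 ratio of replicate 2 over replicate 1 was -0.16 over the 8 members and 0.02 over all 367 genes.

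Mir669o, with its 220 and 104 counts, had a log2 ratio of -0.86 (exact 95% interval -1.22 to -0.52, adjusted p = 5.95e-07). Mir467e, with 281 and 171 counts, had a log2 ratio of -0.50 (-0.78 to -0.22, adjusted p = 0.000672 in the exact test). Neither of the other 2 members above 100 counts in each library passed. Mir467d had a log2 ratio of -0.02 (-0.19 to 0.16, adjusted p = 0.932, exact test) and Mir669c of 0.00 (-0.26 to 0.25, adjusted p = 1, exact test). The interval of Mir669o did not overlap those of Mir467d and Mir669c. That of Mir467e did not overlap that of Mir467d but did overlap that of Mir669c. All of these genes lie in the same intron and strand. The intervals hold counting error alone, and the differences between the genes were not tested further.

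The members with low counts gave wide intervals. Mir467c had a log2 ratio of 0.07 (-0.53 to 0.67), Mir669l of -0.30 (-0.95 to 0.33), Mir669e of 0.21 (-1.07 to 1.497) and Mir669h of -0.63 (-2.24 to 0.75). At this depth a 2-fold difference in either direction lay within the interval of Mir669e, and one towards replicate 1 within that of Mir669h. Mir466n, with 3 counts in all, was too low to be tested.

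**Figure D4:**
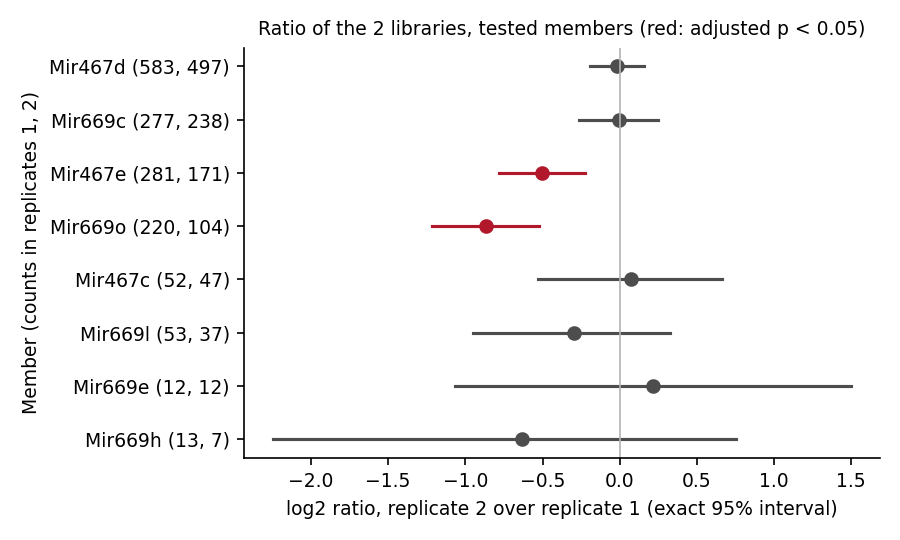
Log2 ratio of replicate 2 over replicate 1 for the 8 tested members, with exact 95% intervals; the counts in replicates 1 and 2 stand beside each name, and red marks an adjusted p below 0.05. Mir669o and Mir467e lie below 0, and the intervals of the other 6 include 0.

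For scale, other lists were read beside the set. The Mir290 cluster, 9 genes also known from embryonic stem cells and the placenta, summed to 42.5 and 41.9 CPM in replicates 1 and 2, with 3 genes at 0 in both libraries: Mir290a, Mir290b and Mir292b. The sum of the 81 Mir297, Mir466, Mir467 and Mir669 genes was above it in both libraries, at 576 and 487 CPM. These sums are over sets of unlike size. By share of genes the order was the other way: 66.7% of the Mir290 genes had counts, against 11.1% of the 81 and 32.9% of all miRNA genes. The Mir290 genes had at least 95.2% own words, against a median of 25.3% in the 81. Multiply aligned reads are in neither sum. Endocrine miRNAs (Mir375, Mir7-1, Mir7-2 and Mir7b) held 6.13% ± 0.673 of counts, the endothelial Mir126a 4.91% ± 2.22 and the leukocyte miRNAs Mir142, Mir150 and Mir223 summed to 1071 ± 11.4 CPM (SD, n = 2 each). In bulk tissue, few cells with much of a miRNA and many cells with little of it cannot be told apart. Transcripts that define adrenal cells are no miRNAs and were not measured.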

How the data were processed

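Small RNA libraries of the adrenal gland, 1 group of 2 replicates, were read from deposited tables of raw counts per miRNA gene, on mm10 with GENCODE M21, per the deposited notes. Aligner, counter and adapter trimming were not named by the labels or notes. That build is of C57BL/6J, and reads with CAST/EiJ alleles may be missing, which was not tested. The same stranded column was taken as own strand in both libraries, and its total over all miRNA genes was the larger in each. Unmapped, multiply aligned and no-gene reads were left out of library totals; unmapped reads were 40.6% and 29.8% of all reads, and no-gene reads 8.94% and 9.44%.

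Symbols, positions and hairpins came from GENCODE M21. Library sizes were scaled with edgeR 4.0.16 TMM factors from genes with a summed count of at least 20 (1.01 and 0.987). The exact test used scipy 1.17.1, and log2 ratios a prior count of 0.5. The test was also run on simulated Poisson counts, with library totals in place of TMM factors. Those counts hold no spread beyond counting error, so they do not show how the test performs on real libraries. DESeq2 1.42.0 size factors were an alternative. Hairpin identity is 100% minus the edit distance (edlib) per base of the longer hairpin.

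The members and lists were chosen with earlier results of these data known. Named genes were members with at least 10 counts in a library, those tested and the reference lists; Mir466n, the members at 0 and the Gm genes were named after their values were seen.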

Additional observations from a re-analysis of the deposited data

Results flagged for a closer look

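Reads that align to several places are present in both libraries outside the gene counts, 2357429 in replicate 1 and 1958627 in replicate 2, or 0.910 and 0.855 for each read counted in a miRNA gene. They are not assigned to genes in the tables, and how many belong to the Sfmbt2 array was not tested.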

How the results depend on the processing

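The 7 detected members ranged from 6 to 8 over count minimums of 5 and 20, either library, each library alone and strand ignored, and the 9 members with counts were 9 under each alternative tried. The share of own-strand counts, 0.0531% on average, was 0.0614% with strand ignored, 0.0156% of all reads of the tables and 0% without members that share 18 bases, which leaves Mir466g alone; without 1 replicate it was 0.0487% to 0.0576%. With Mir466g alone, at 0 counts, no share by locus or stem could be computed. Mir467 genes held 61.4% to 64.1% of the set without 1 replicate. Sharing was found for 81 members with words of 16 bases and 79 with 22. The exact test called 2 members under each scaling and filter, among them TMM factors from all genes with a count, an alternative added after seeing the data, which moved the median log2 ratio of all tested genes by -0.13. The sign turned for ratios near 0: Mir467c was -0.063 with those factors and with no filter on the summed count, and Mir467d and Mir669c were 0.024 and 0.035 with a minimum of 50. No paired analysis was possible because there is 1 group.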

Other observations

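The seed of miR-467h, UAAGUGU, is shared in RefSeq with 1 other mouse mature miRNA, miR-668-5p, and no match was found for the seeds of the other 7 printed members. The members inside Sfmbt2 were not among the sequences compared, so a seed shared with them was not tested.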
